A study of Homo sapiens with 6 samples.

Results

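Genes of mitosis and cytokinesis were read in Huh-7 cells, a human hepatocellular carcinoma line, with and without amiloride, a potassium-sparing diuretic that inhibits epithelial sodium channels and sodium-proton exchange. The 44 genes were chosen by name for their part in the G2 and M phases of the cell cycle, with earlier results of these data known. All 44 were found among the 18674 genes with at least 3 probe sets. They were read by 1148 of the 356353 probe sets assigned to these genes, and CDK1 was read by the probe sets annotated with its older name CDC2. The treated group held 3 arrays of cells kept for 24 hours in 0.5 mM amiloride, added from a DMSO stock, and the control group 3 arrays of Huh-7 cells left untreated for the same time. Each array was labelled a biological replicate and numbered 1 to 3 within its group. Whether control cells received the solvent, and whether a shared number means a shared day or scan, was not given in the sources used here. Amiloride was applied in the study to alter RNA splicing, and growth, cell cycle and cell division of the treated cells were followed, so the comparison asks whether transcripts of the division machinery differed.

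Entry into mitosis is driven by the kinase CDK1 bound to cyclin A or B, which is switched on by CDC25 phosphatases and works with the Polo-like and Aurora kinases. Kinetochores then join chromosomes to spindle microtubules, the spindle checkpoint holds back the anaphase-promoting complex until all are attached, and after its release the central spindle directs cytokinesis. Transcripts of these genes accumulate together in G2 and M phase, so their level in a bulk RNA sample follows the share of dividing cells as well as the amount in each cell. A change in the share of such cells and a change in RNA per cell cannot be told apart here. By cytofluorometry, the paper reports that cells in G2 or M phase accumulated with amiloride, beginning at the treatment time of these arrays. How that share relates to the levels below was not tested.

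All levels below are log2 values of a gene relative to the median gene of the same array, because the deposited arrays differed in scale. The median intensity of an array ran from 4.71 to 13, and it was 12 and 13 on the arrays numbered 1 and between 4.71 and 6.42 on the other 4, so brightness followed the replicate number. Control 1 stood apart. Its gene levels correlated across genes with those of the other 5 arrays at 0.793 to 0.842, while the other 5 correlated among themselves at 0.9 to 0.964 (genes are not independent replicates). Hepatocyte markers marked the cells as labelled, with ALB (albumin) between 5.94 and 6.98 and AFP (alpha-fetoprotein) between 5.88 and 6.64 on every array. Lymphocyte, macrophage and endothelial markers lay below the median gene on all 6 arrays except LYZ (lysozyme, 3.93 to 5.17), and of the stromal markers PDGFRA was at 2.45 on amiloride 1 and at 0.15 or lower on the other 5, and COL1A2 was at 1.61 and 1.58 on the arrays numbered 1 and at 0.17 or lower on the other 4.

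No mitosis gene passed the test between amiloride and control, in either direction. limma with Benjamini-Hochberg adjustment over all genes called 0 of 44 higher, with 0.0107% of all genes called higher, and 0 of 44 lower, with 0% of all genes called lower. At an unadjusted p under 0.05 the members again gave 0 calls each way, against 7.89% of all genes higher and 3.09% lower, and the smallest adjusted p was 0.47, for CEP250. The median difference of the 44 genes, amiloride minus control, was -0.04, beside -0.06 over all genes, and 26 members lay above and 18 below the all-gene median. The arrays of the groups overlapped for 43 of the 44 genes. The exception was CEP250, lower on all 3 treated arrays, while 8.19% of all genes were lower and 10.2% higher without overlap.

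The small median difference came from opposite differences that cancelled. Between the arrays numbered 1, 43 of 44 mitosis genes were higher with amiloride (47.4% of all genes), with a median difference of 1.36. Between the arrays numbered 2, 43 of 44 were lower (54.3% of all genes), with a median of -0.84. Between the arrays numbered 3, 39 of 44 were lower (45.9% of all genes), with a median of -0.57. The order higher, lower, lower held for 38 of 44 genes, against 11.8% of all genes, so the members largely moved as 1 block between same-numbered arrays. Each such difference is between single arrays, and the genes are not independent replicates of it. Genes read well above the median gene were also mostly higher between the arrays numbered 1. Between those numbered 2 and 3 they were lower less often than all genes. Of the 4509 genes with a mean level of at least 1, 83.1% were higher between the arrays numbered 1, 46% were lower between those numbered 2 and 35.6% between those numbered 3, and 18% had the full order. Of the 30 mitosis genes with a mean level of at least 1, 25 had it.

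**Figure D1:**
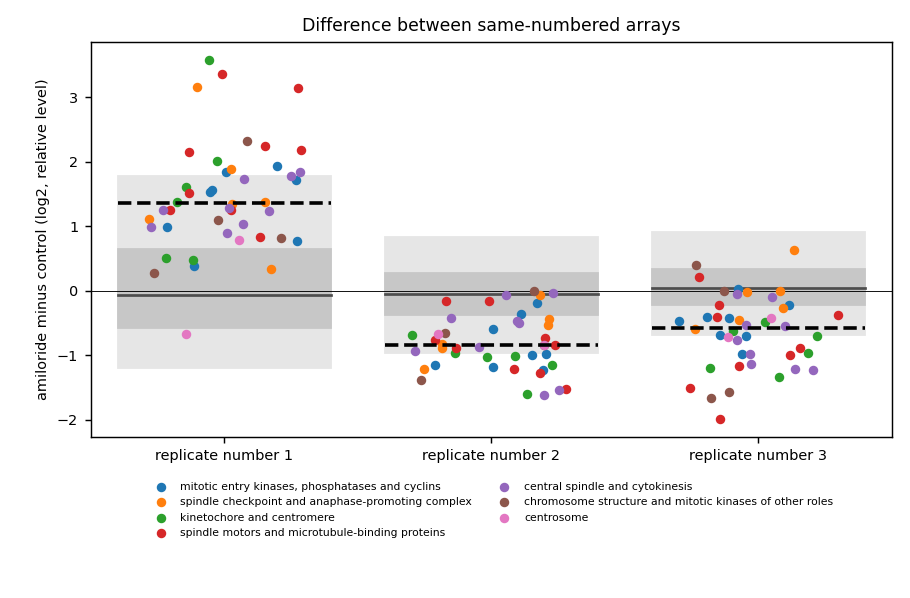
Difference between the amiloride and the control array of the same replicate number for 44 mitosis and cytokinesis genes (points coloured by role, spread sideways only to separate them), on the log2 scale relative to the median gene of each array. The dashed line is the members' median (1.36, -0.84 and -0.57), the grey line the median of all 18674 genes, and the dark and light bands hold the middle 50% and 90% of all genes; the members sit mostly above the line in replicate number 1 and below it in numbers 2 and 3.

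Which arrays made this pattern can be read from the levels themselves. The median level of the 44 genes was 2.05, 1.21 and 1.46 on amiloride 1, 2 and 3 and 0.72, 2.20 and 1.81 on control 1, 2 and 3. Control 1 was therefore the lowest array and control 2 the highest, and all 3 treated arrays lay between control 1 and control 2. Control 1 was below both other controls for 43 of 44 genes, against 43.1% of all genes and 66.7% of those with a mean level of at least 1. It was the lowest of all 6 arrays for 33 of 44. This held for 5586 of all 18674 genes and for 2580 of the 4509 with a mean level of at least 1. Amiloride 1 was above both other treated arrays for 37 of 44 genes, against 6281 of all 18674. Control 1 is also the array that stood apart over all genes.

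**Figure D2:**
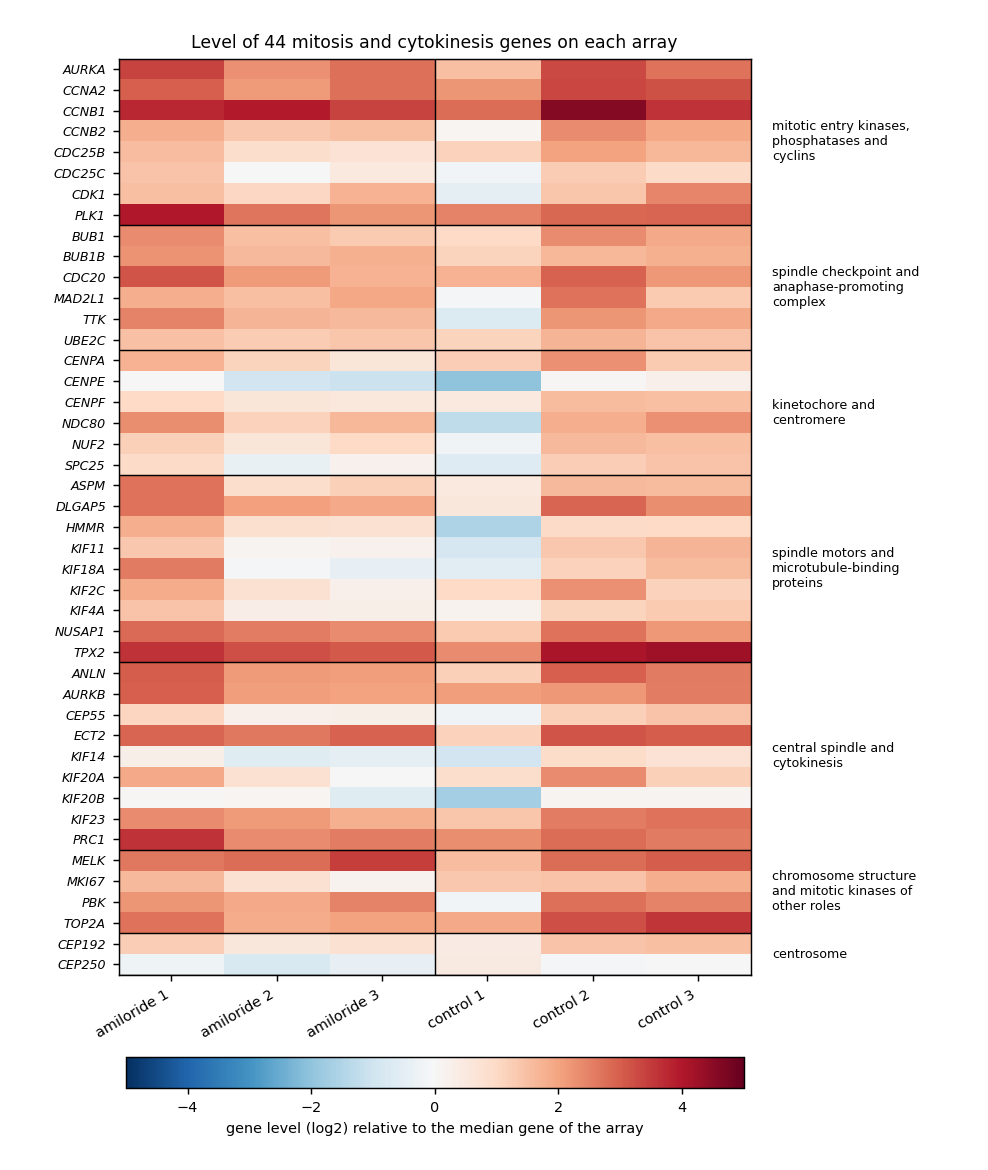
Level of each of 44 mitosis and cytokinesis genes (rows, grouped by role) on each of the 6 arrays (columns), as log2 relative to the median gene of the array; red is above and blue below it. The column of control 1 is the palest or bluest for most genes, with a median of 0.72, while controls 2 and 3 have medians of 2.20 and 1.81.

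Without the arrays numbered 1, a choice made after seeing the data, most of the genes were lower, with MELK (0.20) and NUSAP1 (0.03) the exceptions and BUB1B near 0 (-0.04). The arrays left out were the only same-numbered ones between which most members were higher, so mostly lower estimates were fixed by this choice. That limit holds for all estimates, errors and p-values given below without these arrays, which are descriptions and not separate support. With 2 arrays a group, 42 of 44 were below the median of all genes, and their median difference was -0.71, beside -0.01 over all genes. The 2 treated arrays lay below both controls for 36 of 44 genes, while 22.5% of all genes and 19.7% of those with a mean level of at least 1 did so, and above both controls for 0 of 44, while 22.2% of all genes did so. At an unadjusted p under 0.05, limma gave 26 members lower, where 6.23% of all genes were lower, and 0 higher, where 8.24% were higher. After adjustment over all genes 0 members were called, with 0.0161% of all genes called lower and 0.0428% higher, and the smallest adjusted p of a member was 0.10. This choice also leaves out amiloride 1, which did not stand apart by its correlation across genes. Its gene levels did have the widest spread, with an SD of 1.649 against 1.305 to 1.496 on the other arrays. Without control 1 alone, 36 of 44 were below the median of all genes. There limma gave 10 members lower at an unadjusted p under 0.05 (857 of all 18674 genes) and 0 higher (1105 of all). The smallest adjusted p of a member was 0.30. Leaving out single arrays moved the median difference to -0.45 without control 1 and -0.30 without amiloride 1, and to 0.13 without amiloride 2 or amiloride 3, 0.25 without control 2 and 0.23 without control 3. The sign of the list's median thus depended on which array was left out, and with all 6 arrays its value was close to that of all genes.

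**Figure D3:**
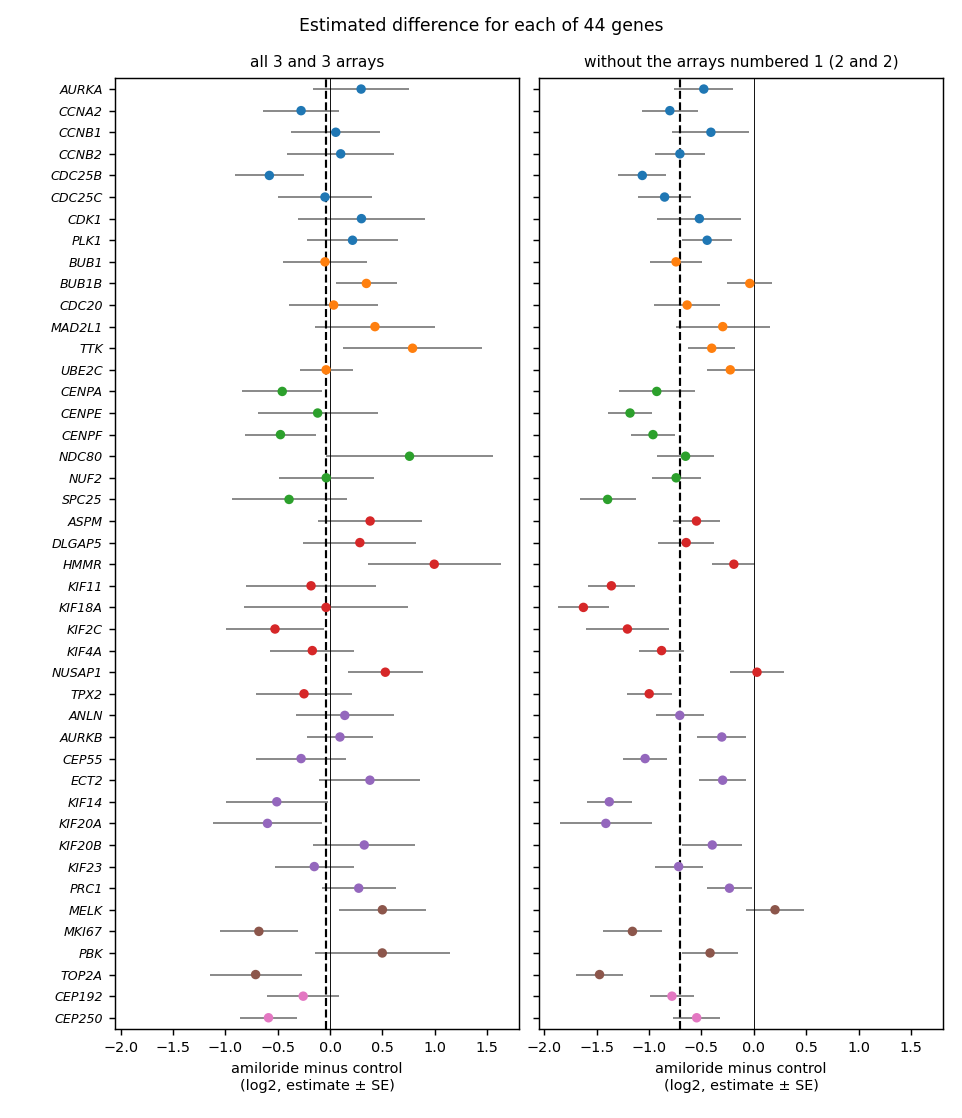
Estimated difference, amiloride minus control, for each of 44 genes with its standard error (limma, log2 relative to the median gene), with all 3 and 3 arrays on the left and with the 2 and 2 arrays numbered 2 and 3 on the right; colours are the roles of the plot of differences by replicate number. Dashed lines mark the members' medians, -0.04 on the left and -0.71 on the right, where 42 of 44 genes lie below the median of all genes.

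The members also shared sequence that did not enter their choice. Promoters of G2 and M genes are known for pairs of short elements, the CCAAT box, bound by the factor NF-Y, and the cell cycle genes homology region (CHR), bound by MuvB complexes, which keep such genes silent in resting cells and active in G2. RefSeq promoters (GRCh38.p14) were at hand for 38 of the 44 genes, leaving out AURKA, TTK, UBE2C, TPX2, PBK and CEP250. In the 250 bases before the start site, the letters CCAAT on either strand were found in 29 of 38 (76.3%), against 33% of 27305 genes with a promoter. A CHR, searched as TTTGAA or TTCGAA on either strand, was found in 21 of 38 (55.3%), against 14.6% of all, and both elements in 19 of 38, against 5.24% of all. Within the last 100 bases the counts were 23 for CCAAT (18.7% of all genes) and 13 for a CHR (4.94% of all). CDC25B, CDC25C, CENPE, NDC80, NUF2, KIF2C and MELK held neither set of letters in this window. The 130 bases before the start site of 6 genes are shown 5′ to 3′ on the strand of the gene, because they show the forms the arrangement takes among these genes. Capitals mark CCAAT (its complement where it lies on the other strand) and the CHR.
CCNB2: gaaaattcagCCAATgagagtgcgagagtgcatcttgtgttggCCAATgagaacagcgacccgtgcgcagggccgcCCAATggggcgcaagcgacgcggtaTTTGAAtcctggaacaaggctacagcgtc
PLK1: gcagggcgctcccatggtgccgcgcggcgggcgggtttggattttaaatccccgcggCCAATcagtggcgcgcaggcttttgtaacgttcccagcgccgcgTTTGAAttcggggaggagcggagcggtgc
CDC20: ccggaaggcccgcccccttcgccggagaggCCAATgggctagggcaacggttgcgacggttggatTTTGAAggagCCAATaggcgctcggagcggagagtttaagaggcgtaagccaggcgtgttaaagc
HMMR: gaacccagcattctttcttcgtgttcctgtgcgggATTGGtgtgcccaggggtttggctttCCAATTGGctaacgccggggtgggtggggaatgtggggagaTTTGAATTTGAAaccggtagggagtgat
CCNB1: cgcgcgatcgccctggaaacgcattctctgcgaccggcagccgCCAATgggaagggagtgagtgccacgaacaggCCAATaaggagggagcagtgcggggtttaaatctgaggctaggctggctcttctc
TOP2A: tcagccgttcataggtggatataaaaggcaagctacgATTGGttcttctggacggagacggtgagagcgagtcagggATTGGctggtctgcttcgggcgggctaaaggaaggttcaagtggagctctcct
The stretches are chr15:59105016-59105145 (CCNB2), chr16:23678759-23678888 (PLK1), chr1:43358851-43358980 (CDC20), chr5:163460502-163460631 (HMMR) and chr5:69167020-69167149 (CCNB1) on the plus strand and chr17:40417897-40418026 (TOP2A) on the minus strand. In CCNB2 and PLK1 the CHR begins 29 bases before the start with CCAAT farther upstream. HMMR holds 2 CHR copies side by side, and its CCAAT boxes at -69 and -66, on opposite strands, overlap. CCNB1 and TOP2A hold paired CCAAT boxes with no CHR in this stretch, although TOP2A has CHR letters farther upstream. A match describes letters only and was not set against the differences between arrays.

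Among the 8 genes of mitotic entry, all were higher between the arrays numbered 1, all lower between those numbered 2 and 7 lower between those numbered 3. CCNB1 encodes cyclin B1, the partner that activates CDK1. Its level was 3.76, 3.97 and 3.38 with amiloride and 2.78, 4.57 and 3.60 in controls, the brightest reading of the 44 genes, although readings of different probe sets do not rank transcripts by abundance. Control 1 was lowest and control 2 highest, with the treated arrays in between, and the difference was 0.05 ± 0.42 (SE, n = 3 and 3, limma adjusted p = 0.97). CDC25B, a phosphatase that removes the inhibitory phosphates of CDK1, was at 1.53, 0.86 and 0.70 with amiloride and at 1.14, 2.02 and 1.68 in controls. Amiloride 2 and 3 lay below every control and amiloride 1 lay within them. CDC25B was the lowest of this group with a difference of -0.58 ± 0.33 (adjusted p = 0.53), and -1.06 ± 0.23 without the arrays numbered 1 (adjusted p = 0.14).

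The remaining entry genes had differences between -0.28 for CCNA2, which encodes cyclin A2, and 0.30 for CDK1 and for AURKA, the Aurora kinase of centrosome and spindle pole. CDK1 showed how far control 1 reached. It was at -0.43 there, below the median gene, against 1.39 and 2.44 on the other controls and 1.03 to 1.76 with amiloride. For CCNB2, which encodes cyclin B2, and CDC25C, the phosphatase of CDK1 at entry, control 1 was at 0.11 and -0.14. PLK1, the Polo-like kinase of entry and spindle assembly, was instead set apart by amiloride 1, at 4.02 against 2.67 and 2.20 on the other treated arrays and 2.49 to 2.91 in controls. Without the arrays numbered 1, all 8 entry genes were lower, from -0.41 for CCNB1 to -1.06 for CDC25B, and the arrays of CCNB1, CDK1 and AURKA still overlapped.

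The 6 genes of the spindle checkpoint and of its target, the anaphase-promoting complex, were all above the all-gene median difference, at a median of 0.19. TTK, the kinase that starts checkpoint signalling at unattached kinetochores, was at 2.48, 1.69 and 1.63 with amiloride and at -0.68, 2.23 and 1.91 in controls. Only control 1 lay low, and the other 5 arrays lay within 0.845 of each other. The difference of 0.79 ± 0.67 (adjusted p = 0.66) became -0.40 ± 0.22 without the arrays numbered 1 (adjusted p = 0.48). BUB1, the kinase that recruits checkpoint proteins to kinetochores, was at 2.35, 1.49 and 1.31 with amiloride and at 1.02, 2.38 and 1.91 in controls. With all 6 arrays its groups overlapped and the difference was -0.05 ± 0.41 (adjusted p = 0.97). Without the arrays numbered 1 both treated arrays lay below both controls, for -0.74 ± 0.25 (adjusted p = 0.25).

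BUB1B, which encodes the checkpoint protein BUBR1, was at 2.24, 1.60 and 1.79 with amiloride and at 1.12, 1.67 and 1.79 in controls. The arrays numbered 2 differed by -0.07 and those numbered 3 by -0.01, so that BUB1B was nearly level there (-0.04 ± 0.21 without the arrays numbered 1). UBE2C, the ubiquitin-conjugating enzyme of the anaphase-promoting complex, was at 1.27 to 1.47 with amiloride and 1.13 to 1.71 in controls, and differed by -0.44 between the arrays numbered 2 and -0.01 between those numbered 3. CDC20, the activator of that complex, differed by 0.03 ± 0.42, from 1.38 between the arrays numbered 1 to -0.82 between those numbered 2.

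MAD2L1, which encodes the checkpoint protein MAD2, and CDC20 had probe sets in separate runs of numbers. The 14 probe sets with the symbol MAD2L1 fell in 2 runs of probe set numbers, 9 between 2783733 and 2783744 and 5 between 3538716 and 3538722. Over all 14 the level was 1.82, 1.49 and 1.92 with amiloride and -0.06, 2.71 and 1.29 in controls. Over the 9 alone it was 1.70, 1.44 and 0.80 against 0.19, 1.85 and 1.22, so that the treated array numbered 3 was 0.43 below its control and not 0.62 above it. The 9 probe sets thus had the order higher, lower, lower that the full set lacked. For CDC20, 20 probe sets were numbered 2333137 to 2333160 and 3 were numbered 3177818 to 3177821, and the mean difference was 0.06 over the 20 and 0.03 over all 23. The 3 alone differed by 0.78, with control 1 at 1.41 and the other 5 arrays between 4.18 and 4.79. Whether the separate runs read another copy was not tested, because positions of the probe sets were not used here.

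The 6 genes of kinetochore and centromere were lower in both later pairs without exception, with medians of 1.49, -1.02 and -0.83 for numbers 1, 2 and 3. NDC80 encodes the subunit of the NDC80 complex that binds microtubules. It was at 2.31, 1.14 and 1.66 with amiloride and at -1.27, 1.83 and 2.28 in controls, where control 1 lay 2.41 or more below every other array. The difference was 0.76 ± 0.79 (adjusted p = 0.72), the largest error of the 44 genes, and -0.65 ± 0.28 without the arrays numbered 1 (adjusted p = 0.35). CENPE, the kinesin that carries chromosomes to the spindle equator, had the lowest reading of the members, at -0.02, -0.96 and -1.08 with amiloride and -2.03, 0.07 and 0.26 in controls. Control 1 was lowest and the other controls highest, and the difference of -0.12 ± 0.57 (adjusted p = 0.94) became -1.18 ± 0.21 without the arrays numbered 1 (adjusted p = 0.12).

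SPC25 and NUF2, partners of NDC80 in the same complex, differed by -0.39 and -0.04 with all arrays and by -1.40 and -0.74 without those numbered 1. The complex members therefore had estimates of both signs with all arrays and of 1 sign without that pair, and all 3 were lowest on control 1. CENPA, the histone H3 variant that marks centromeres, and CENPF, a kinetochore protein that appears in G2, differed by -0.46 and -0.47, and by -0.93 and -0.96 without the arrays numbered 1. These genes had only small differences between the arrays numbered 1 (0.48 and 0.50).

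Spindle motors and microtubule-binding proteins had the widest differences between the arrays numbered 1, with a median of 2.14 over 9 genes. HMMR, a spindle protein that is also a receptor of hyaluronan, was at 1.82, 0.79 and 0.76 with amiloride and at -1.54, 0.94 and 0.99 in controls. It had the largest difference of the 44 genes, 0.99 ± 0.63 (adjusted p = 0.58), which came from the arrays numbered 1. The other 4 arrays lay within 0.226 of each other (-0.19 ± 0.20 without the arrays numbered 1). NUSAP1, which bundles spindle microtubules near chromosomes, was at 2.84, 2.56 and 2.37 with amiloride and at 1.32, 2.72 and 2.15 in controls. Its difference was 0.53 ± 0.36 (adjusted p = 0.60), and 0.03 ± 0.26 without the arrays numbered 1, so it had no direction in the later arrays.

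KIF2C, a kinesin that removes tubulin from microtubule ends at centromeres, was at 1.85, 0.77 and 0.25 with amiloride and at 1.01, 2.29 and 1.14 in controls. Amiloride 1 lay within the controls and the other treated arrays below them, for a difference of -0.53 ± 0.46 (adjusted p = 0.67) and of -1.21 ± 0.40 without the arrays numbered 1 (adjusted p = 0.24). KIF18A, a kinesin that limits chromosome movement at the spindle equator, had the steepest contrast between pairs. It was at 2.60, -0.11 and -0.40 with amiloride and -0.54, 1.16 and 1.58 in controls. Its difference was -0.04 ± 0.79 with all arrays and -1.63 ± 0.25 without those numbered 1 (adjusted p = 0.10), the lowest estimate there.

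KIF11, the kinesin that pushes spindle poles apart, followed KIF18A with -1.36 ± 0.23 without the arrays numbered 1 (adjusted p = 0.10) and -0.18 ± 0.62 with them. TPX2, which activates Aurora A on the spindle, and KIF4A, a chromosome-bound kinesin, were at -0.999 and -0.88 without that pair. DLGAP5 and ASPM, proteins of the spindle and its poles, were at -0.65 and -0.55.

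All 9 genes of the central spindle and cytokinesis were lower between the arrays numbered 2 and between those numbered 3, by medians of -0.50 and -0.76, and all were higher between those numbered 1, by a median of 1.25. KIF20A, a kinesin of the central spindle that brings Aurora B there, was at 1.90, 0.76 and -0.02 with amiloride and at 0.87, 2.38 and 1.19 in controls. Amiloride 2 and 3 lay below every control. The difference was -0.60 ± 0.52 (adjusted p = 0.67) and -1.41 ± 0.44 without the arrays numbered 1 (adjusted p = 0.22). KIF14, a kinesin that works with the bundler PRC1 and with citron kinase in abscission, was at 0.28, -0.63 and -0.50 with amiloride and at -0.96, 0.91 and 0.72 in controls, for -1.38 ± 0.21 without the arrays numbered 1 (adjusted p = 0.10).

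The central spindle genes were not lower to a like degree. PRC1, which bundles antiparallel microtubules, and AURKB, the Aurora kinase of the chromosomal passenger complex, were at -0.23 and -0.31 without the arrays numbered 1. ECT2, the exchange factor that activates RhoA at the cleavage site, was at -0.30, and KIF20B, a further kinesin of cytokinesis, at -0.40. KIF23, the kinesin of centralspindlin, was at -0.72 and ANLN, which encodes the ring protein anillin, at -0.71. CEP55, which recruits the abscission machinery to the midbody, was at -1.04 (adjusted p = 0.13). With all 6 arrays these 7 genes had estimates from -0.28 for CEP55 to 0.38 for ECT2, none past the test.

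TOP2A and MKI67, the genes most used as markers of dividing cells, had the lowest estimates of all 44 with all 6 arrays. TOP2A, which encodes topoisomerase II alpha, was at 2.70, 1.86 and 2 with amiloride and at 1.89, 3.24 and 3.56 in controls. Control 1 lay with the treated arrays, and the difference was -0.71 ± 0.44 (adjusted p = 0.57). Without the arrays numbered 1 it was -1.47 ± 0.23 (adjusted p = 0.10). MKI67, which encodes the Ki-67 protein of the chromosome surface, was at 1.63, 0.76 and 0.18 with amiloride and at 1.35, 1.42 and 1.83 in controls. Its controls were close together, control 1 included, and its treated arrays spread by 1.46, for a difference of -0.68 ± 0.37 (adjusted p = 0.52) and of -1.16 ± 0.28 without the arrays numbered 1 (adjusted p = 0.16).

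MELK and PBK, kinases whose amount is raised in mitotic cells, had other orders. MELK was at 2.63, 2.79 and 3.44 with amiloride and at 1.54, 2.79 and 3.04 in controls, and it was the only member higher in all 3 pairs, although by only 0.003 between the arrays numbered 2. PBK was at 2.21, 1.91 and 2.46 with amiloride and at -0.12, 2.74 and 2.46 in controls. Its arrays numbered 3 differed by 0.002 and its difference of 0.50 ± 0.65 came from control 1.

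The centrosome pair behaved differently between its members. CEP250, a linker protein that holds the centrosomes of a cell together until mitosis, was at -0.21, -0.76 and -0.43 with amiloride and at 0.47, -0.08 and -0.01 in controls. It was lower on all 3 treated arrays than on any control and was the only member lower between the arrays numbered 1 (-0.67, with -0.68 and -0.42 for numbers 2 and 3). Its difference of -0.59 ± 0.27 had an adjusted p of 0.47 and an unadjusted p above 0.05, and it was at -0.55 ± 0.22 without the arrays numbered 1 (adjusted p = 0.33). CEP192, which recruits centrosome material and Polo-like kinase for the spindle poles, was at 1.22, 0.58 and 0.77 with amiloride and at 0.43, 1.42 and 1.49 in controls. Its difference of -0.26 ± 0.34 (adjusted p = 0.77) became -0.78 ± 0.21 without the arrays numbered 1 (adjusted p = 0.18).

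Further genes of mitosis outside the 44 gave 0 calls in either direction among 123 measured of 128 listed. At an unadjusted p under 0.05, 14 were higher and 5 lower (11.4% and 4.07%), against 7.89% and 3.09% of all genes. Their median was 0.08, and 102 were higher between the arrays numbered 1, 82 lower between those numbered 2 and 78 lower between those numbered 3. Without the arrays numbered 1 their median was -0.25, with 62 of 123 lower without overlap (22.5% of all genes) and 27 higher (22.2% of all genes), beside 36 and 0 of the 44 members. The lists share arrays, and the difference between them was not tested.

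Single genes of these lists did lie apart from the mitosis block. Of the 123, 19 were higher on every treated array than on any control, and 4 were lower on every one. The shares of all genes were 10.2% higher and 8.19% lower. Of the 4509 genes with a mean level of at least 1, 954 were higher and 124 lower in this way. The genes named next were picked for their small p. CKS1B, a small subunit that binds CDK1 and CDK2, was at 2.67, 2.80 and 2.77 with amiloride and at 1.40, 1.53 and 1.77 in controls. Every treated array was above every control, in all 3 pairs, and the difference was 1.18 ± 0.24 (adjusted p = 0.23). ANAPC10 and CDC23, subunits of the anaphase-promoting complex, were likewise higher on every treated array, by 1.82 ± 0.43 and 1.08 ± 0.32 (adjusted p = 0.26 and 0.31). So were the kinetochore genes SKA2 (1.52), CENPQ (1.01) and OIP5 (0.71), the spindle genes HAUS6 (1.24) and TUBG1 (0.57), and the cohesin genes PDS5B (1.09), STAG2 (1.07) and RAD21 (0.82), all with an adjusted p between 0.29 and 0.48. Control 1 was the lowest array for each of these genes except OIP5 and TUBG1. Without the arrays numbered 1, SKA2 was at 0.94, CENPQ at 0.67, OIP5 at 0.76 and HAUS6 at 0.695. TUBG1 was at 0.65 there, PDS5B at 0.85, STAG2 at 0.705 and RAD21 at 0.445. Other subunits of the same complexes had estimates of the other sign. The cohesin gene SMC1A was lower on every treated array (-0.51 ± 0.26, adjusted p = 0.49), and CDC16 and CDC27 of the anaphase-promoting complex were at -0.62 and -0.41 with overlap.

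Among lower genes of these lists, FZR1, an activator of the anaphase-promoting complex in late mitosis, was lower without overlap by -0.61 ± 0.31 (adjusted p = 0.50). CIT, which encodes citron kinase of the midbody, was at -0.10, -0.38 and -0.61 with amiloride and at 0.17, 0.34 and 0.64 in controls, without overlap, for -0.75 ± 0.26 (adjusted p = 0.37). MYH10, a nonmuscle myosin heavy chain, was lower without overlap by -0.79 ± 0.29 (adjusted p = 0.37), and MYH9, the related myosin of the contractile ring, by -0.91 ± 0.39 with overlap of amiloride 1 (adjusted p = 0.45). CENPI, a protein of the inner kinetochore, was at -1.06 ± 0.37 with all arrays and at -1.66 without those numbered 1.

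Genes of DNA replication and S phase, set beside the mitosis genes, did not show the order by replicate number to a like degree. Of 40 measured, 30 were higher between the arrays numbered 1, 18 lower between those numbered 2 and 13 lower between those numbered 3. Their median was 0.22 with all arrays and 0.17 without those numbered 1, against -0.04 and -0.71 for the mitosis genes, and in the 2 and 2 arrays 17 were higher without overlap (22.2% of all genes) and 8 lower (22.5% of all genes). None was called, with 6 higher and 0 lower at an unadjusted p under 0.05, where 7.89% of all genes were higher and 3.09% lower. GINS2 and MCM5, parts of the replicative helicase, were higher by 1.02 ± 0.28 and 0.98 ± 0.29 (adjusted p = 0.30 and 0.32), and CCNE1, which encodes cyclin E1, by 0.93 ± 0.29 (adjusted p = 0.34), each without overlap. Of 18 genes of G1 and CDK inhibition, 0 were called, and RB1, the retinoblastoma gene, had the smallest p (1.78 ± 0.47, adjusted p = 0.28). CDKN1A, the inhibitor p21, differed by -0.04 ± 0.25. The difference between the S phase and the mitosis genes was not tested.

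An exon array reads a gene at many places, and the splicing index follows 1 place against the rest: it subtracts the level of the gene from the log2 value of 1 of its probe sets, array by array. Of the members' 1148 probe sets, 1045 were bright enough to test. limma called 0 of them higher and 0 lower, with 0% of all probe sets called in either direction. At an unadjusted p under 0.05, 9 were higher and 17 lower, 0.861% and 1.63% of the 1045, where 1.9% and 2.6% of all tested probe sets were, and the smallest adjusted p was 0.95. By the 3 criteria of the study's methods, which set an upper bound of -1.585 on both the splicing index and the log2 ratio of amiloride to control and a lower bound of 0.7 on the correlation of the gene's 2 mean profiles, 4 probe sets of 4 genes were lower, against 0.381% of all probe sets and 6.79% of all genes. With the signs turned, 1 was higher, against 0.229% of all probe sets and 3.9% of genes. Members past these criteria were 4 of 44 (9.09%), and the criteria use no replicate error.

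The probe set of CENPE past the criteria (2780193) read 1.3, 9.4 and 5.4 intensity units with amiloride and 4.9, 21.2 and 22.2 in controls. Its splicing index by array was -4.48, 0.71 and -0.21 against -0.37, 0.95 and 0.49, so that amiloride 1 alone lay far below the rest. The mean index of -1.64 was -0.04 without amiloride 1, and the limma difference was -1.68 ± 1.22 (adjusted p = 0.95). Another probe set of CENPE (2780215) was lower on all 3 treated arrays, with an index of 0.26, 0.03 and 0.23 against 0.75, 0.83 and 1.10, for -0.72 ± 0.28 (adjusted p = 0.95).

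KIF14, KIF23, MAD2L1 and ANLN supplied the other probe sets past the criteria. The probe set of KIF14 (2450399) read 8, 4 and 4 units with amiloride and 25, 31 and 15 in controls. Its index was lower on every treated array, at -2.18, -0.85 and -1.22 against 0.90, 0.66 and -0.55, for -1.76 ± 0.51 (adjusted p = 0.95), and the mean index without any 1 array ran from -1.33 to -2.16. It missed the criteria without amiloride 1, control 1 or control 2. The probe set of KIF23 (3599853) read only 2.2 to 3.2 units with amiloride and 5.2 to 11.4 in controls, which was too dim for the test. Its mean index of -1.72 was -1.04 without amiloride 1, and it met the criteria in only 2 of the 6 sets with 1 array left out.

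In MAD2L1 and ANLN 1 control array lay far from the others. That of MAD2L1 (3538721) belonged to the separate run of numbers and read 459.4 units on control 2 against 4.9 and 6.6 on the other controls and 1.4 to 13.1 with amiloride. Its mean index of -3.14 was -1.32 without control 2. That of ANLN (2997423), past the turned criteria, read 2.4 units on control 1 against 63.7 and 70.5 on the other controls and 58.1 to 264.7 with amiloride, and its mean index of 1.91 was 0.37 without control 1.

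**Figure D4:**
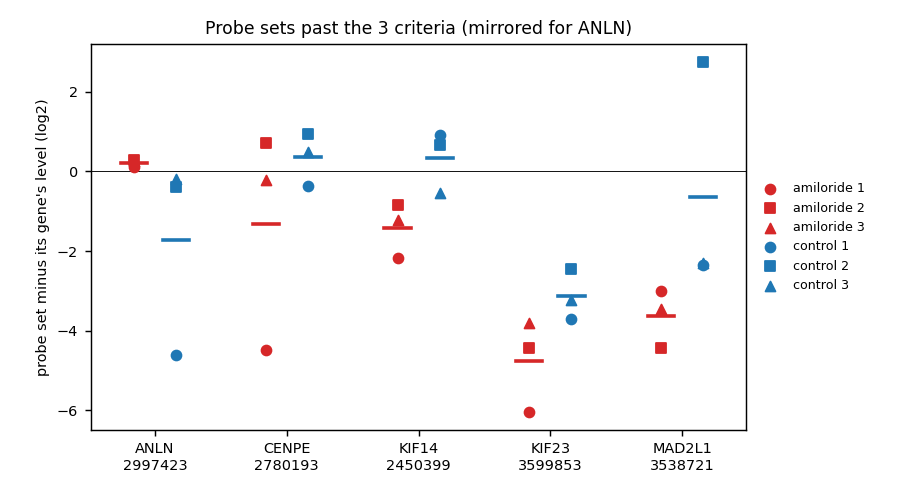
Splicing index (log2 value of a probe set minus its gene's level) of the 5 member probe sets past the 3 criteria, with the signs turned for ANLN, on each of 3 amiloride arrays (red) and 3 control arrays (blue), where the marker shape gives the replicate number and bars are group means; probe set numbers stand under the gene names. KIF14, KIF23 and MAD2L1 have every treated array below every control, ANLN has every treated array above every control, and CENPE overlaps. In ANLN control 1, in CENPE amiloride 1 and in MAD2L1 control 2 lies far from the other arrays of its group.

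BUB1, BUB1B, CEP192 and CEP250 had no probe set past the criteria. In BUB1B a probe set (3589720) had an index of -0.25, -1.15 and -1.29 with amiloride and of -0.11, 0.92 and -0.23 in controls, each treated array below each control, for -1.09 ± 0.44 (adjusted p = 0.95). In CEP192 a probe set (3779869) had an index of 0.62, 0.63 and 0.50 against 1.46, 1.37 and 1.63, for -0.90 ± 0.27. The lowest mean index of CEP192 was -1.43 (3779862), with a log2 ratio of -1.63 and without overlap. That probe set read 1.1 to 6.6 units, too dim for the test, and it met the criteria without control 3. In CEP250 a probe set (3883358) moved against its gene, at -0.48, -0.27 and -0.12 against -1.12, -1.35 and -1.69, for 1.10 ± 0.30, while another (3883355) was lower by -1.12 ± 0.38, both without overlap. The lowest index of BUB1 was -0.62 (2570678), with overlap. All of those tested had an adjusted p of 0.95.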

How the data were processed

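Total RNA of 6 Huh-7 samples, 3 with amiloride and 3 without, was read on exon arrays. The authors used the background probes to correct the arrays, normalized them in dChip, and deposited a linear intensity for every probe set of each array. Per the labels the genome build was hg 18. The median deposited intensity differed between arrays, and 2.52% to 5.94% of an array's values lay at or below 1. All 6 columns were used. No pooled or author-made comparison columns were used.

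Of 1408285 probe sets, 357582 carried exactly 1 gene symbol in the platform's annotation and were used, while 15322 with more than 1 symbol and 1035381 with no symbol were not. Of the symbols, 2967 were updated to current names. Intensities under 1 were set to 1 before taking log2. The level of a gene was the median over its probe sets, with at least 3, and each array was centred on its median gene. Differences were tested with lmFit and eBayes (limma 3.58.1 in R 4.3.3), two-sided, over all 18674 genes and, for the splicing index, over the 271399 probe sets whose mean log2 value reached the overall median of 2.796, and an adjusted p (Benjamini-Hochberg) under 0.05 was the threshold. For the 3 criteria, these log2 values were averaged over replicates without centring the arrays. In each group the median of the means over the gene's probe sets was subtracted, and the index was amiloride minus control. Promoter letters were counted with Python 3.11.15 in the RefSeq table, using the promoter listed first for each symbol. The scripts were tested on simulated data. With 3 arrays a group the number of arrays limits the precision. Each p sets a difference between groups against the spread of arrays within them, moderated over all genes or probe sets tested.

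The alternatives were deposited values without centring, quantile normalization, the replicate number as a block, dim probe sets left out, a pseudocount of 16, another variance prior and each array left out. Leaving out both arrays numbered 1 and splitting probe sets by runs of numbers were chosen after the data were seen. The members, the lists and the tests were chosen with earlier results of these data known. Values by array are given for the 10 members with the largest differences, the brightest and dimmest reading, BUB1, BUB1B, CENPE, CEP192 and CEP250, and in the other lists for those with the smallest p. CCNB2, CDC20, CDK1, KIF14, KIF18A, MAD2L1, MELK, PBK and PLK1 were given by array after their values were seen, and CDC16, CDC27, FZR1 and SMC1A were named after theirs were seen.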

Additional observations from a re-analysis of the deposited data

How the results depend on the processing

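The mitosis genes gave 0 calls in each direction under every alternative run at gene level, and so did the further mitosis genes, except that these were not run with quantile normalization joined to leaving out both arrays numbered 1. The splicing index gave 0 calls under every alternative run for it, which leaves out that joined setting and the deposited scale, since centring an array cancels in the index. The median difference of the 44 genes ran from -0.45 to 0.25 with single arrays left out and from -0.04 to 0.12 under the other alternatives fixed at the start. It was -0.71 without both arrays numbered 1 and -0.56 when that was joined to quantile normalization, where 42 of 44 genes again lay below the median of all genes. The median over all genes was -0.06, 0.04 as deposited and 0.11 after quantile normalization, where 43 members were higher between the arrays numbered 1, 37 lower between those numbered 2 and 41 lower between those numbered 3. The 4 probe sets past the criteria became 0 with a pseudocount of 16 and 2 without dim probe sets, and 2 to 7 with single arrays left out. The 1 past the turned criteria became 0 with the pseudocount and 0 without both arrays numbered 1, and 1 to 14 with single arrays left out. The cause of these shifts was not tested. The single genes and probe sets followed under the alternatives were all short of the threshold in the main test. All 743 further values kept their direction or stayed short of the threshold. That rule could fail only for a value past the threshold with its direction turned, so it does not show that directions held. Not all did: the estimates of HMMR, TTK and NDC80 changed sign without both arrays numbered 1.

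Replicate numbers gave a mixed answer on pairing and were not treated as pairs. After removal of the group means, gene levels of same-numbered arrays correlated at 0.163, 0.097 and 0.188, 1 of them under 0.1. Splicing indices correlated at 0.146, 0.186 and 0.332 and the members' levels at 0.101, 0.1 and 0.289, and each amiloride array correlated best with the control of its own number. With the replicate number as a block, the members gave 0 calls, the smallest adjusted p was 0.37, and the median difference stayed at -0.04.

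Dim probe sets near the floor and 3 arrays a group limit the precision. Differences between probe sets are not exon calls, since exon positions were not used here.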
